A study of Mus musculus with 12 samples.

Results

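Ubiquitin-conjugating (E2) enzyme genes were examined in mouse erythroleukemia (MEL) cells with and without knockdown of G9a, the Ehmt2 product that methylates histone H3 at lysine 9. The genes were taken by name: every gene whose symbol starts with Ube2, together with Cdc34, for which the platform annotation assigns a probe set to that gene alone. This gave 34 of the 18193 genes with such a probe set, and the brightest probe set on average stood for each gene. Of the 34, 29 exceeded a log2 level of 4 on 3 or more of the 6 arrays and were tested, and 5 did not.

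MEL is an established leukemia line of the red cell lineage that differentiates in dimethyl sulfoxide (DMSO). RNA came from 3 wild type and 3 G9a knockdown samples, each group bearing replicate numbers 1 to 3, and both groups had 2% DMSO for 4 days. Doxycycline at 5 µg/ml switched on the knockdown. The one protocol text serves both groups, so whether wild type cells had doxycycline too is not given in the sources used here. Neither the knockdown construct nor the number of clones is given in the sources used here, nor whether replicates were separate cultures. The p-values therefore cover only the array-to-array spread, part of which may be technical.

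Ubiquitin is attached to proteins in a cascade. An E1 enzyme activates it, an E2 enzyme carries it as a thioester on a cysteine, and an E3 ligase brings the loaded E2 to the substrate. The E2 often sets which kind of ubiquitin chain is built, and relatives of the E2 family carry ubiquitin-like proteins such as NEDD8, SUMO and ISG15. In maturing red cells this system clears proteins and organelles that the finished cell lacks, and Ube2o and Ube2h are E2 genes known for their part in it.

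All levels below are GCRMA values on the log2 scale, differences are knockdown minus wild type on that scale, and means are given ± SD with n = 3 per group. Tests are limma fits with the replicate number as a block, over 17028 probe sets, with Benjamini-Hochberg adjustment and a threshold of 0.05. Over the probe sets tested, same-numbered arrays deviated from their group means together, with correlations of 0.72, 0.57 and 0.37. Over the E2 genes alone the correlation for number 2 was −0.11. The knockdown itself was seen at both Ehmt2 probe sets, which differed by −2.86 and −2.87 (limma adjusted p = 0.0278 and 0.0316). Of 11 erythroid marker genes with a probe set, 10 lay above the filter. Among them were the transcription factor gene Gata1 at 13.25 and the heme synthesis gene Alas2 at 13.20 on average in wild type. Of 5 lymphoid and 6 fibroblast or endothelial marker genes 0 lay above the filter, and of 7 myeloid marker genes 1 did. That gene was Csf1r, with a difference of −0.049.

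Promoter windows of 4 of the genes are shown here, because Cdc34 and Ube2n had the lowest p for the knockdown and Ube2c and Ube2t the lowest p for the replicate number. Each runs from 250 bases before to 50 bases after a transcription start, 5′ to 3′, from RefSeq on GRCm38.p6. All 4 genes lie on the plus strand, Cdc34 at chr10:79681945-79682244, Ube2n at chr10:95514912-95515211, Ube2c at chr2:164769679-164769978 and Ube2t at chr1:134962315-134962614. Capitals mark matches on either strand to the letters CCAAT (the CCAAT box), TTTGAA (the cell cycle homology region, CHR), AGATAA (named for GATA factors) and CCGGAAG (named for ETS factors).
Cdc34: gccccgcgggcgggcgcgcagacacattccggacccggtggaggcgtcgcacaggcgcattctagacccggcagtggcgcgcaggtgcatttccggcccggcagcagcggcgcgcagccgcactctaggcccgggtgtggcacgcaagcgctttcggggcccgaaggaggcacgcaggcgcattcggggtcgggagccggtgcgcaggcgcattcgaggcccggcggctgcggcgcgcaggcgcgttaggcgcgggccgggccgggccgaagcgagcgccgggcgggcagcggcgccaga
Ube2n: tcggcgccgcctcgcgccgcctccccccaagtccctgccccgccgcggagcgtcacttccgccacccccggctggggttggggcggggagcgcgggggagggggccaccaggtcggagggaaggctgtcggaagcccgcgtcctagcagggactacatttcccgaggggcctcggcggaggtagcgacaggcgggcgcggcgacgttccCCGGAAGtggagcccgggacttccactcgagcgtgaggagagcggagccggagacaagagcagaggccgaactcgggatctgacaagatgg
Ube2c: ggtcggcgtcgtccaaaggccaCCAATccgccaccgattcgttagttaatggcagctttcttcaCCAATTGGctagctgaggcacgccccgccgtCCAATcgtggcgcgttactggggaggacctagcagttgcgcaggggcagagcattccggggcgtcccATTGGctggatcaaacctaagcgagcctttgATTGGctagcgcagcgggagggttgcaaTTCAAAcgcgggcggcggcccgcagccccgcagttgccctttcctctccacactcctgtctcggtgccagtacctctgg
Ube2t: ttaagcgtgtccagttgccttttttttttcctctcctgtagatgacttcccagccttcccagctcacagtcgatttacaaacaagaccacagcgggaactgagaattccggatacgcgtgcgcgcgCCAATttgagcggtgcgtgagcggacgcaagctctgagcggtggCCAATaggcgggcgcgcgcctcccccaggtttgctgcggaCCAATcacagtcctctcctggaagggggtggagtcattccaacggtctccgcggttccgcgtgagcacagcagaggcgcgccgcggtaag

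The window of Ube2c held CCAAT 6 times, 2 of them overlapping, and TTTGAA once, on the minus strand. On the plus strand as printed, that match reads TTCAAA and begins at −29 from the start. The window of Ube2t held CCAAT 3 times and no TTTGAA, and 1 of the windows of Ube2f held CCAAT 3 times and TTTGAA once. Of all 32851 RefSeq windows of this length, 37.4% held CCAAT at least once, 3.37% held it 3 or more times and 0.0791% held it 6 or more times, while 17.9% held TTTGAA. The Cdc34 window held none of the 4 motifs and 50 CG dinucleotides, against a median of 30 over the windows of the E2 genes and 7 over all windows. Ube2n had 1 ETS match, which 8.86% of all windows have. Windows were found for 28 of the 34 genes, 37 in all, with some genes represented by several that can overlap. Over these 37 windows the median GC content was 69% and over all windows 52.7%. CCAAT was in 7, TTTGAA in 4, CCGGAAG in 8 and AGATAA in 1 (11.2% of all windows). A match of letters is a description of the sequence and was not tested for binding.

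No E2 gene passed the threshold in the knockdown. In the blocked limma fit 0 of the 29 tested genes were called, where 0.0117% of all probe sets were, both of these being Ehmt2. The smallest adjusted p among the E2 genes was 0.154, for Cdc34. At an unadjusted p under 0.05 there were 5 of 29 genes, 2 higher and 3 lower in the knockdown, or 17.2% against 14.2% of the 9025 genes tested. In this blocked fit the share of E2 genes is near the background. Without the block, limma called 0 E2 genes and 0.00587% of probe sets, and 4 E2 genes (13.8%) had an unadjusted p under 0.05, where 5.98% of genes did. In MAS5, the other deposited summary of the same arrays, limma called 0 E2 genes and 0% of probe sets. There, 4 E2 genes (13.8%) had an unadjusted p under 0.05, where 10.1% of genes did.

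As a group the E2 genes did not lean in either direction. Of the 29 tested genes, 15 had a positive and 14 a negative difference, with a median of 0.012, against −0.0063 over all genes tested. The median size of the difference, without its sign, was 0.10 in the E2 genes and 0.13 in all genes. In 11 genes all 3 pairs of same-numbered arrays had the same sign, or 37.9% against 40.4% of all genes. The groups did not overlap in 5 genes, or 17.2% against 12.8%. The 95% interval lay within ±0.5 for 21 of the 29 genes and within ±1 for 29. Changes beyond 2-fold were thus outside the GCRMA interval at the representative probe set of every tested E2 gene. These intervals are not adjusted for the number of genes and, like the p-values, cover only the array-to-array spread.

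**Figure D1:**
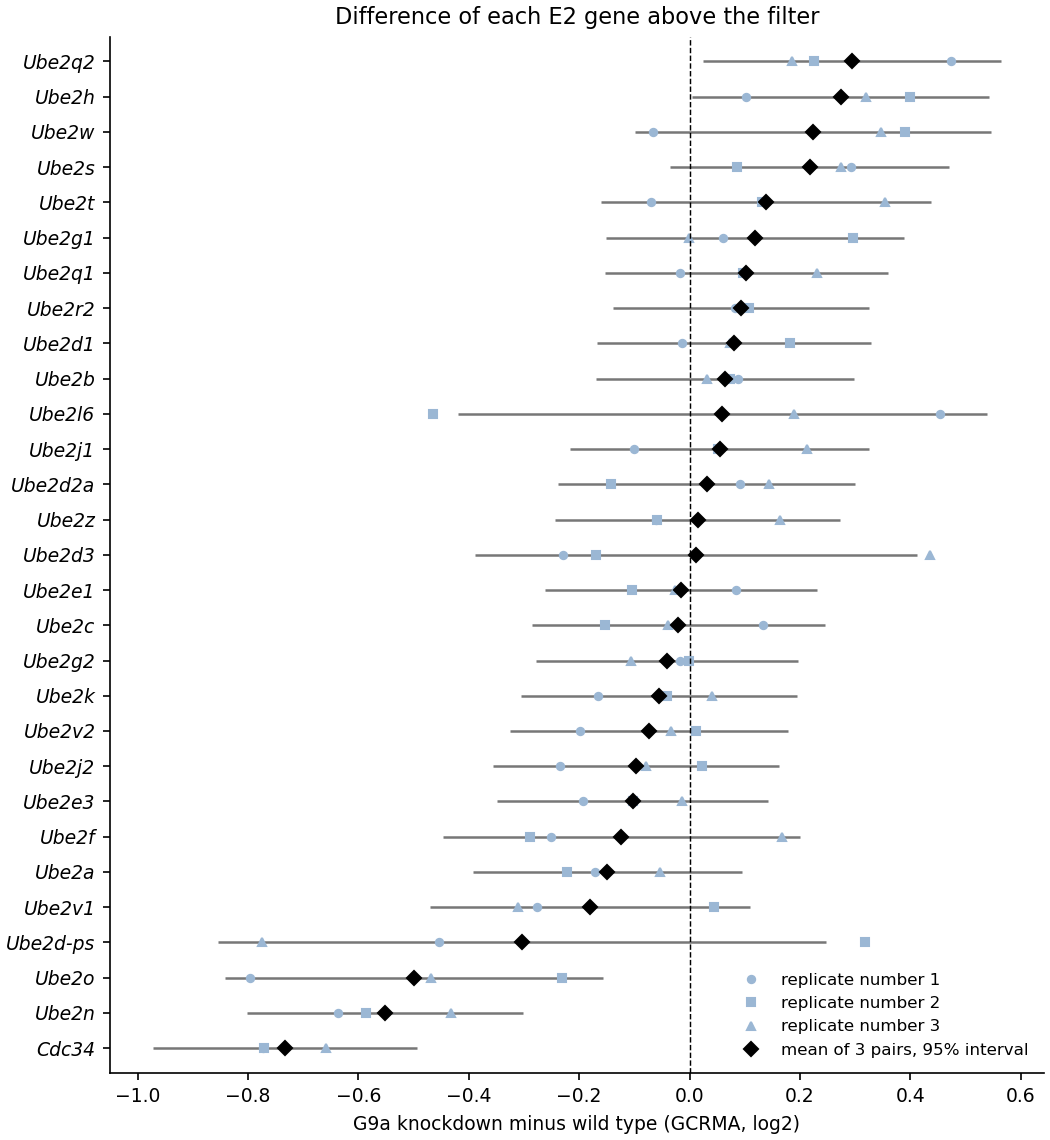
Difference between G9a knockdown and wild type (x axis, GCRMA log2) for the 29 tested E2 genes, ordered by size. Diamonds are means with the 95% interval of the blocked limma fit, and small symbols are the differences within each pair of same-numbered arrays; Cdc34, Ube2n and Ube2o lie apart from the other genes at −0.73, −0.55 and −0.50, while Ube2q2 is the highest at 0.29.

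Among the E2 enzymes defined by the chains they build, Cdc34 had the lowest p of the family. Cdc34 (also called Ube2r1) serves the cullin-RING ligases and extends chains that send proteins to the proteasome. At 1434879_at, its one probe set, it read 10.21, 10.04 and 10.00 in wild type arrays 1 to 3 and 9.44, 9.27 and 9.34 in the knockdown. All 3 knockdown arrays lay below all 3 wild type arrays. The difference was −0.73 (95% interval −0.97 to −0.49), or 1.66-fold lower, and −0.77, −0.77 and −0.66 in the 3 pairs. Cdc34 ranked 25th by p among the genes tested, and its limma adjusted p of 0.154 missed the threshold. These are bulk samples, in which less RNA per cell and fewer cells with the transcript cannot be told apart.

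Ube2r2, the close relative of Cdc34 with the same ligase partners, read 9.78, 9.97 and 9.85 in wild type and 9.86, 10.08 and 9.95 in the knockdown. The difference was 0.094 (−0.14 to 0.33; limma adjusted p = 0.696), with groups that overlapped, and 0.083, 0.11 and 0.091 in the pairs. The intervals of Cdc34 and Ube2r2 do not overlap. This pair was chosen with both values in view, so the contrast between them is a description.

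Ube2n (Ubc13) builds chains used in signalling and DNA damage tolerance and works only as a dimer with an inactive E2 variant, Ube2v1 or Ube2v2. At 1422559_at it read 11.45, 11.26 and 11.20 in wild type and 10.81, 10.68 and 10.77 in the knockdown. Every knockdown array was below every wild type array, by −0.64, −0.59 and −0.43 in the pairs. The mean difference was −0.55 (−0.80 to −0.30; limma adjusted p = 0.183), or 1.47-fold lower, at rank 106 by p among genes. A second Ube2n probe set lay below the filter in both groups.

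The partners of Ube2n showed smaller differences. Ube2v1 read 11.25, 11.02 and 11.08 in wild type and 10.97, 11.06 and 10.77 in the knockdown, a difference of −0.18 (−0.47 to 0.11). Its second tested probe set differed by −0.20. For Ube2v2 the difference was −0.074 (−0.33 to 0.18), and 0.071 at its dimmer tested probe set. In both partners the groups overlapped.

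The remaining chain-building genes had intervals that include 0. Ube2k, which builds chains for the proteasome by itself, read 11.56 ± 0.048 and 11.50 ± 0.067. Ube2g1, which extends chains with cullin-RING ligases, read 11.38 ± 0.092 and 11.50 ± 0.16 at its brighter probe set, a difference of 0.12, and differed by −0.40 at the dimmer one. The sign for Ube2g1 thus depends on the probe set. Of the 7 genes in this group 5 were negative and 2 positive.

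Ube2o and Ube2h, grouped here as linked to erythroid maturation, had an unadjusted p under 0.05 at their representative probe sets, in opposite directions. Of all genes tested 14.2% had such a p, and neither gene passed after adjustment. Ube2o encodes a large enzyme with E2 and E3 activity that marks ribosomal and other proteins for removal in maturing red cells. At 1433765_at it read 10.37, 10.18 and 10.26 in wild type and 9.57, 9.95 and 9.79 in the knockdown, so the groups did not overlap. The difference was −0.50 (−0.84 to −0.16; limma adjusted p = 0.269), or 1.41-fold lower. It was −0.80 in pair 1, −0.23 in pair 2 and −0.47 in pair 3, so its size varied more between pairs than that of Cdc34.

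Ube2h is the E2 partner of the CTLH ligase complex. Its probe set 1428791_at read 9.91, 9.79 and 9.94 in wild type and 10.01, 10.19 and 10.26 in the knockdown. The knockdown arrays were all above the wild type arrays, and the difference was 0.27 (0.0046 to 0.54; limma adjusted p = 0.36). The 3 other tested probe sets disagreed in sign, with differences of 0.20, 0.31 and −0.24, and none had an unadjusted limma p under 0.05. At the probe set with 0.31 the groups did not overlap either. They also did not overlap at the one with −0.24, where all knockdown arrays lay below all wild type arrays. In MAS5 the difference of 1428791_at was 0.14, with groups that overlapped.

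**Figure D2:**
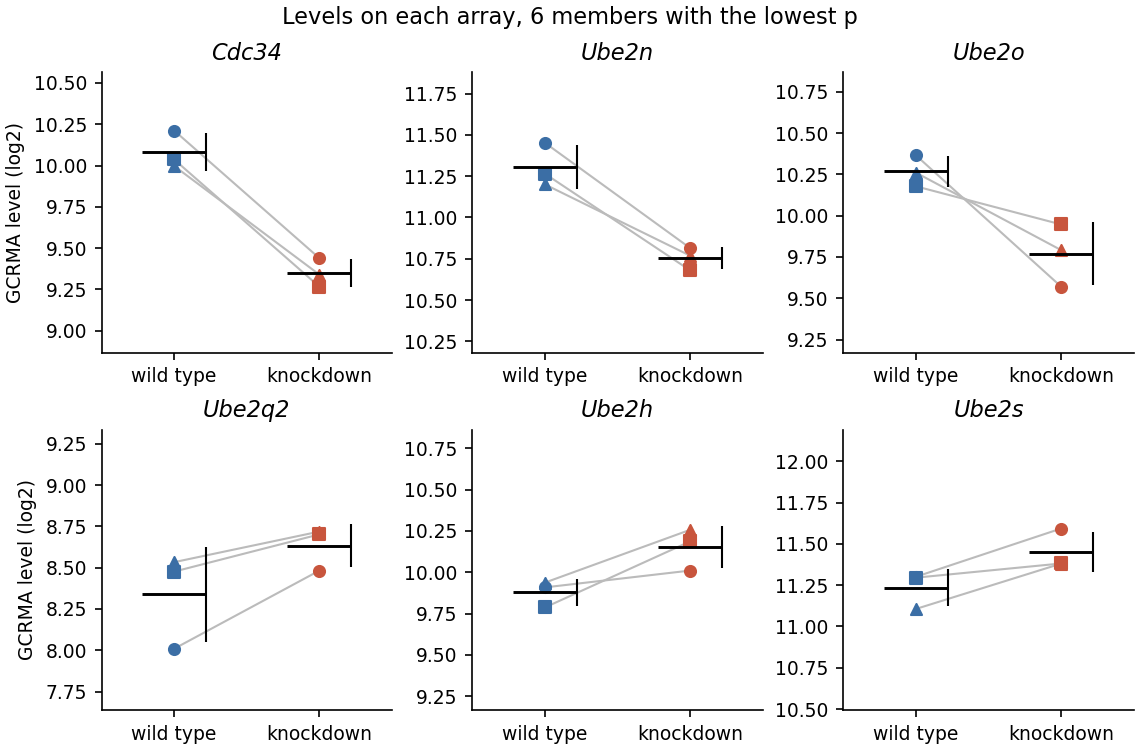
GCRMA log2 level (y axis, spanning the same range in each panel) of the 6 E2 genes with the lowest p, on 3 wild type (blue) and 3 G9a knockdown (red) arrays. Lines join arrays of the same replicate number (circle 1, square 2, triangle 3), bars are means and vertical lines 1 SD; the groups do not overlap in Cdc34, Ube2n, Ube2o, Ube2h and Ube2s, and overlap in Ube2q2.

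Of the 3 tested genes with other or less known roles, Ube2q2 had the lowest p. It read 8.01, 8.48 and 8.53 in wild type and 8.48, 8.70 and 8.72 in the knockdown. Wild type array 1 was the lowest of the 6, and the groups overlapped. Its difference was 0.29 (0.025 to 0.56; limma adjusted p = 0.341), with 0.47, 0.23 and 0.19 in the pairs and 0.13 without wild type replicate 1 and without the block. Ube2q1, its relative, read 11.29 ± 0.11 and 11.39 ± 0.021. The dimmer Ube2q1 probe set, 1434508_at, differed by 0.33 (limma adjusted p = 0.2997, unadjusted p under 0.05), 0.10 being the difference at the brighter one.

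Ube2d-ps, a pseudogene of the Ube2d family that RefSeq lists as a long noncoding RNA, was just above the filter. It read 4.51, 3.87 and 4.64 in wild type and 4.06, 4.19 and 3.87 in the knockdown, with groups that overlapped. The difference of −0.30 (−0.85 to 0.25) had the opposite sign in MAS5, at 0.17.

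Ube2c and Ube2s, the pair of E2 enzymes of the anaphase-promoting complex (APC/C), start and extend the chains that end mitosis. Ube2s read 11.30, 11.30 and 11.11 in wild type and 11.59, 11.38 and 11.38 in the knockdown, and the groups did not overlap. The difference was 0.22 (−0.036 to 0.47; limma adjusted p = 0.417). Its probe set, 1416726_s_at, is of a type that can read more than one transcript. Ube2c differed by −0.020 (−0.28 to 0.24) between the groups, while it varied widely between replicate numbers, as described below.

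Of the DNA repair and chromatin E2 genes, Ube2a and Ube2b encode the enzymes that ubiquitinate PCNA and histone H2B, and Ube2t that of the Fanconi anemia pathway. Ube2a read 12.76, 12.54 and 12.52 in wild type and 12.59, 12.32 and 12.47 in the knockdown. The groups overlapped, with a difference of −0.15 (−0.39 to 0.096), and −0.038 at its other probe set. Ube2b differed by 0.064 (−0.17 to 0.30), with the same sign at its 3 tested probe sets. For Ube2t the difference was 0.14 (−0.16 to 0.44), with −0.070, 0.13 and 0.35 in the pairs.

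The broadly acting E2 enzymes of the Ube2d and Ube2e families, which work with many ligases, had no tested gene at an unadjusted p under 0.05 in GCRMA at its representative probe set. Ube2d3 read 15.63, 15.70 and 15.16 in wild type and 15.40, 15.54 and 15.60 in the knockdown. The difference was 0.012 (−0.39 to 0.41), with −0.23, −0.17 and 0.44 in the pairs, wild type array 3 being the lowest of the 6. All 7 of its probe sets had positive differences, from 0.012 to 0.22. At all 7, pair 1 was negative and pair 3 positive, at 0.44 to 0.72. The 7 probe sets were read on the same arrays, so their shared sign is not independent evidence. Without replicate 3 the difference at the representative probe set was −0.20. The MAS5 difference at its representative probe set was 0.31 (limma adjusted p = 0.467, unadjusted p under 0.05), with groups that did not overlap.

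For Ube2d2a the levels were 12.50, 12.61 and 12.80 in wild type and 12.59, 12.47 and 12.94 in the knockdown, a difference of 0.031. Its 3 other tested probe sets differed by −0.078, −0.069 and −0.095. Ube2e1 read 12.35, 12.43 and 12.47 in wild type and 12.44, 12.33 and 12.44 in the knockdown, a difference of −0.015 (−0.26 to 0.23). All of these groups overlapped.

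Ube2e3 read 12.49, 12.31 and 12.27 in wild type and 12.30, 12.20 and 12.26 in the knockdown, a difference of −0.10 (−0.35 to 0.14). Its dim second probe set, at a mean of 4.31, differed by −0.38 (limma adjusted p = 0.36, unadjusted p under 0.05), with groups that overlapped. Ube2d1 read 8.59 ± 0.22 and 8.67 ± 0.13. Ube2w, which starts chains at the N-terminus of proteins, read 8.92, 8.69 and 8.52 in wild type and 8.85, 9.08 and 8.86 in the knockdown. Its difference was 0.22 (−0.099 to 0.55) and 0.0038 at its second tested probe set.

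The E2 genes of endoplasmic reticulum-associated degradation, the pathway that clears misfolded secretory proteins, all had intervals that include 0. Ube2g2 differed by −0.042 (−0.28 to 0.20), the membrane-anchored Ube2j1 by 0.055 (−0.22 to 0.33) and Ube2j2 by −0.097 (−0.36 to 0.16). Of the E2 enzymes for ubiquitin-like proteins or a separate E1, Ube2f, which loads NEDD8 on cullins, differed by −0.12 (−0.45 to 0.20), with the same sign at all 6 probe sets. Ube2l6, the ISG15 enzyme, differed by 0.060 (−0.42 to 0.54). Its pairs were the most scattered of this group, at 0.45, −0.46 and 0.19. Ube2z, which accepts ubiquitin from Uba6, differed by 0.015 (−0.24 to 0.27). At a dim Ube2z probe set with a mean of 4.31 the difference was 0.31 (limma adjusted p = 0.36, unadjusted p under 0.05). There the groups overlapped in GCRMA but not in MAS5, where the difference was 0.48.

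The 5 genes below the filter had means of 2.92 to 3.52 over the 6 arrays, near the array medians of 2.99 to 3.10. Ube2cbp, which encodes an E2-binding protein rather than an E2, read 3.57 ± 0.034 and 3.47 ± 0.11. Ube2d2b read 2.94 ± 0.069 and 2.89 ± 0.033, and Ube2e2 3.12 ± 0.087 and 3.16 ± 0.22. Ube2ql1 read 3.29 ± 0.045 and 3.26 ± 0.027, and Ube2u 3.00 ± 0.054 and 3.01 ± 0.053. No change was detectable at these levels, and none of the 5 was tested. A further 4 probe sets annotated to several genes including a Ube2 gene were left out.

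Several genes had more than 1 probe set above the filter. There were 16 such genes with 31 probe sets beyond the representative ones. In 10 of the 16 all tested probe sets had the same sign. The 6 with mixed signs were Ube2d2a, Ube2g1, Ube2g2, Ube2h, Ube2k and Ube2v2. Cdc34, Ube2n and Ube2o each had 1 tested probe set, so their differences have no second probe set as a check.

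**Figure D3:**
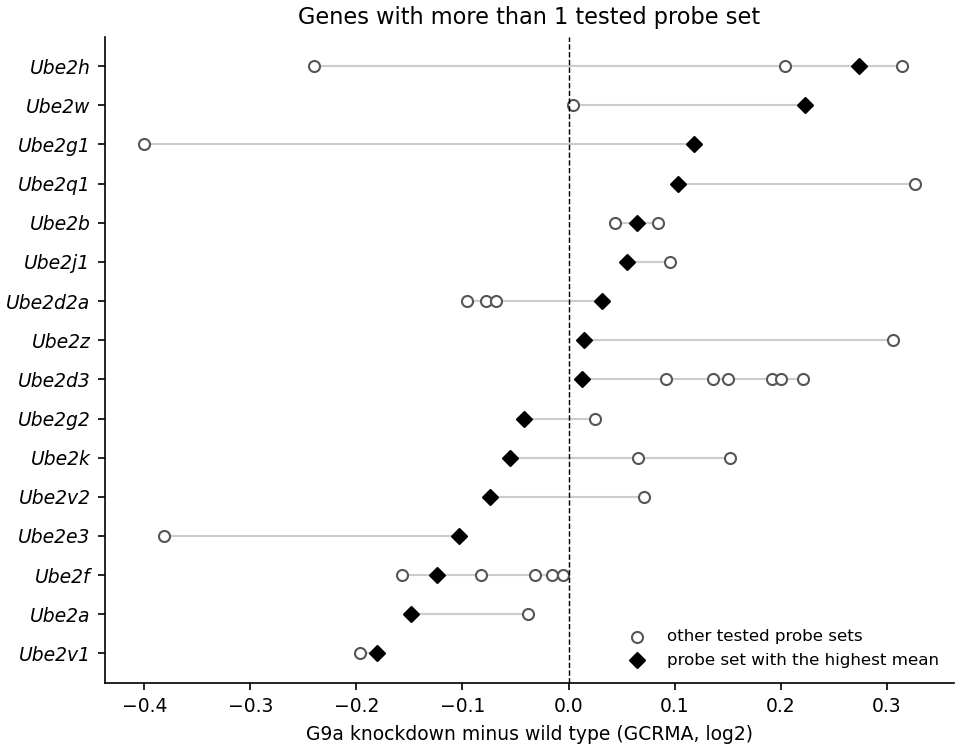
Difference between G9a knockdown and wild type (x axis, GCRMA log2) at each tested probe set of the 16 E2 genes with more than 1. Black diamonds are the probe sets with the highest mean, which represent the gene, and open circles the others. Ube2d3 has all 7 on the positive side, although pair 1 was negative at each of them. Ube2h spans −0.24 to 0.31 and Ube2g1 −0.40 to 0.12.

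Some E2 genes varied between replicate numbers, Ube2c the most. A limma test of the replicate number, with the group as a term, called 1 of the 29 E2 genes, Ube2c, where 1.97% of genes were called. Ube2c read 11.03, 10.14 and 9.53 in wild type arrays 1 to 3 and 11.16, 9.98 and 9.49 in the knockdown. Its means by number were 11.10, 10.06 and 9.51, a range of 1.58 (limma adjusted p = 0.0304), beside a knockdown difference of −0.020. In MAS5 the means were 12.17, 11.30 and 10.65 (limma adjusted p = 0.125), and 0 E2 genes were called where 0% of genes were. For Ube2c in GCRMA the limma adjusted p was 0.458 when both replicate 1 arrays were left out, 0.0252 without replicate 2 and 0.0190 without replicate 3. This test was added after the values were seen, and what a replicate number stands for is not given in the sources used here.

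Ube2t read 9.27, 8.83 and 8.36 in wild type and 9.20, 8.96 and 8.71 in the knockdown. Its replicate 1 arrays were the highest in both groups (limma adjusted p = 0.116 for the replicate number). Ube2b and Ube2v2 had the opposite arrangement. Ube2b read 10.74, 11.05 and 11.20 in wild type and 10.83, 11.12 and 11.23 in the knockdown, and Ube2v2 read 10.26, 10.45 and 10.62 and 10.06, 10.46 and 10.59. Replicate 1 arrays were the lowest for both (limma adjusted p = 0.159 and 0.177). Ube2g2 read 8.59, 8.17 and 8.14 in wild type and 8.57, 8.16 and 8.04 in the knockdown (limma adjusted p = 0.125). With Ube2g2, these were the 5 E2 genes with an unadjusted p under 0.05 for the replicate number, which 24.4% of genes tested had. In 19 of 29 E2 genes (65.5%) the range over replicate numbers was larger than the knockdown difference, against 81.4% of genes. The median range was 0.20 in the E2 genes and 0.29 in all genes tested.

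**Figure D4:**
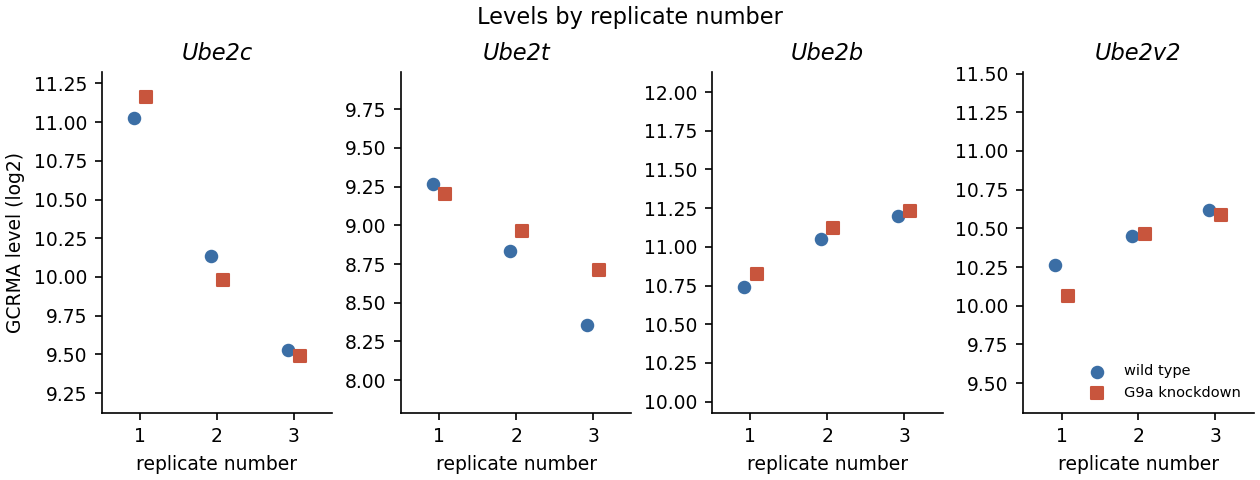
GCRMA log2 level (y axis, spanning the same range in each panel) by replicate number (x axis) for Ube2c, Ube2t, Ube2b and Ube2v2, with wild type arrays as blue circles and G9a knockdown arrays as red squares. Replicate 1 arrays are the highest for Ube2c and Ube2t and the lowest for Ube2b and Ube2v2 in both groups.

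The MAS5 values were compared with GCRMA gene by gene. Of the 29 tested E2 genes 24 had the same sign in both, or 82.8% against 80.7% of all genes tested. Cdc34 differed by −0.57 (limma adjusted p = 0.419), Ube2n by −0.50 (adjusted p = 0.419) and Ube2o by −0.47 (adjusted p = 0.422) in MAS5, and in all 3 the groups did not overlap. Ube2q2 differed by 0.28 and Ube2s by 0.23. The 5 genes with opposite signs were Ube2b, Ube2d-ps, Ube2e1, Ube2l6 and Ube2z. Since both summaries come from the same arrays, equal signs are not independent evidence.

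**Figure D5:**
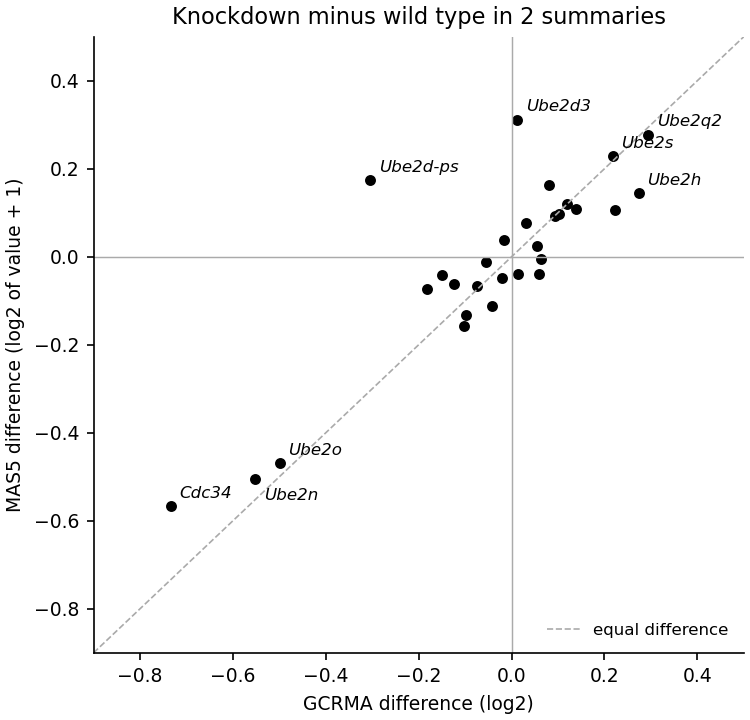
Difference between G9a knockdown and wild type in MAS5 (y axis, log2 of value + 1) against GCRMA (x axis, log2) for the 29 tested E2 genes, 1 point each, with a dashed line at equal differences. Cdc34, Ube2n and Ube2o lie at the lower left in both summaries, and Ube2d3 stands apart at 0.012 in GCRMA and 0.31 in MAS5.

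Other genes of the ubiquitin system were counted from lists of known components. None passed the blocked limma threshold in any list. At an unadjusted p under 0.05, which 6.56% of genes reached as higher and 7.63% as lower in the knockdown, the lists were counted in each direction. Of 7 tested E1 enzyme genes 0 did, with 2 positive and 5 negative and a median of −0.091. Mocs3 differed by −0.26, the ISG15 enzyme gene Uba7 by −0.30 and the autophagy enzyme gene Atg7 by 0.20. Of 6 tested genes of ubiquitin and ubiquitin-like proteins 2 did, both higher, Fau by 0.30 and Urm1 by 0.43. The median there was −0.060, and Ufm1 differed by −0.26 (−0.043 at its dimmest tested probe set). The list of 7 genes with an E2 fold but another name had 2 lower and 0 higher at that p and a median of −0.11, with the giant E2 and E3 enzyme gene Birc6 at −0.52 and the autophagy gene Atg10 at −0.28.

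Ligase genes were as mixed. Of 19 tested HECT ligase genes 2 were higher and 1 lower at that p, Nedd4l by 0.40, Smurf1 by 0.36 and Huwe1 by −0.33, with a median of −0.025. The RING-between-RING ligase genes had 2 higher and 2 lower of 11, with a median of −0.027. Rnf144b had the lowest p, at −0.83 (limma adjusted p = 0.149), from 6.80 ± 0.75 to 5.98 ± 0.73. It read 7.64, 6.60 and 6.17 in wild type and 6.79, 5.78 and 5.36 in the knockdown, so the groups overlapped while each pair had a lower knockdown array. Without the block its limma adjusted p was 0.858. Rbck1, a subunit of the linear ubiquitin chain complex, differed by −0.38. Arih2, a partner of neddylated cullins, differed by 0.35, while its remaining probe sets ranged from −0.068 to 0.66.

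The ligase complexes served by Cdc34, Ube2c, Ube2s and Ube2h were also counted. Of 17 tested cullin-RING genes, which include the partners of Cdc34, 6 were positive and 11 negative with a median of −0.074. Vhl, a substrate receptor, differed by −0.42 and by −0.91 at its other probe set, and was the 1 gene of that list with an unadjusted p under 0.05. All 14 APC/C genes were tested, with 0 at that p and a median of −0.033, Cdc23 having the lowest p at −0.30. All 10 CTLH genes were tested, 5 positive and 5 negative, with 1 lower at that p and a median of 0.025. Maea, a catalytic subunit of the complex, which is also known as erythroblast macrophage protein, differed by −0.37 (limma adjusted p = 0.279), from 9.55 ± 0.11 to 9.18 ± 0.057, and its groups did not overlap.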

How the data were processed

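The deposited table holds 6 Affymetrix arrays in 2 summaries. Per the labels, the authors computed MAS5 intensity values, deposited on a linear scale with a 2% trimmed mean of 500 on each array, and GCRMA values, deposited on a log2 scale. The versions and settings behind them were not given in the sources used here. The number of arrays limits the precision.

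Of 45101 probe sets, 64 controls were left out. Gene names came from the platform annotation, with 34945 of the others naming 1 gene, 932 several and 9160 none. Probe sets above log2 4 in at least 3 arrays (17028) were fitted by limma (version 3.58.1, R 4.3.3) using lmFit, eBayes and Benjamini-Hochberg adjustment, with group and replicate number as terms. MAS5 was fitted as log2(value + 1). The fit was tested on simulated data. Deviations from the group means correlated at 0.72, 0.57 and 0.37 between same-numbered arrays, so the numbers were taken to pair the arrays, a pairing that comes from the data. Over the E2 genes alone these were 0.79, −0.11 and 0.68. There, wild type 2 with knockdown 3 gave 0.31, and wild type 3 with knockdown 2 gave 0.34.

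Every E2 gene is named. Array values are given for the 10 with the lowest p, the 5 with the highest mean and those with a replicate number p under 0.05 or set beside a relative, the last chosen after their values were seen. From each pathway list up to 3 genes with the lowest p are named. The genes, lists and tests were chosen with earlier results of these data known. Promoter windows were matched by gene ID to RefSeq GRCm38.p6. The files name no build. Alternatives were another summary, no block, other filters, median centring, array weights, a trended prior, other pseudocounts and leaving out arrays.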

Additional observations from a re-analysis of the deposited data

How the results depend on the processing

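The count of E2 genes called stayed at 0 under every alternative run, with a smallest limma adjusted p of 0.0723 (trended, robust prior) to 0.942. Without the replicate block the 15 positive genes and the median of 0.012 are the same by construction, as the design is balanced. Across the other settings positive genes numbered 10 to 17 and the median was −0.033 to 0.033. Cdc34, Ube2n, Ube2o, Ube2q2, Ube2h and Ube2s kept their sign throughout, with Cdc34 at −0.78 to −0.56. Ube2a, Ube2e3, Ube2f, Ube2q1, Ube2r2, Ube2v1 and Ube2w also kept their sign throughout. The remaining E2 genes changed sign around 0 in at least 1 setting. In MAS5 (with pseudocounts 1 and 32) these were Ube2b (−0.0043, −0.0041), Ube2d-ps (0.17, 0.15), Ube2e1 (0.039, 0.038), Ube2l6 (−0.039, −0.037) and Ube2z (−0.038, −0.038). With array weights they were Ube2d2a (−0.0075), Ube2d3 (−0.037), Ube2l6 (−0.050) and Ube2z (−0.0046). With the mean over probe sets they were Ube2d2a (−0.053), Ube2g1 (−0.14) and Ube2k (0.054). When 1 array (without the block) or 1 replicate number (with it) was left out, differences ranged from −0.065 to 0.18 for Ube2b, −0.50 to 0.38 for Ube2c, −0.024 to 0.20 for Ube2d1, −0.11 to 0.13 for Ube2d2a and −0.20 to 0.13 for Ube2d3. The ranges were −0.065 to 0.029 for Ube2e1, −0.20 to 0.10 for Ube2g2, −0.025 to 0.13 for Ube2j1, −0.21 to 0.031 for Ube2j2, −0.10 to 0.00021 for Ube2k and −0.15 to 0.32 for Ube2l6. They were −0.093 to 0.36 for Ube2t, −0.18 to 0.080 for Ube2v2 and −0.064 to 0.058 for Ube2z. With 1 array left out and no block, replicate numbers are not balanced between the groups, so these differences include differences between replicate numbers. For Ube2c, leaving out replicate number 1, 2 or 3 with the block gave −0.096, 0.047 and −0.010. Over all probe sets, 2 calls became 1 without the replicate block, 0 in MAS5, 0 with no filter, 8 with the stricter filter at log2 6, 4 with array weights, 6 with the trended prior and 0 to 1 when arrays were left out. The cause was not tested. The 1 call for replicate number became 0 in MAS5 and 0 to 1 with a replicate number left out.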
